A study of Rattus norvegicus with 8 samples.

Results

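Atf4 and 9 further genes of the integrated stress response were followed in the livers of rats given thioacetamide and of untreated rats. The genes were taken by symbol or gene identifier from the annotation of the arrays, and the 10 genes (Atf4, Atf3, Ddit3, Trib3, Chac1, Asns, Psat1, Phgdh, Ppp1r15a and Herpud1) were all found, each with 1 probe set, among 24137 genes and 26208 probe sets. The treated animals were 4 male F344/N rats that received thioacetamide, a liver toxicant activated by liver enzymes, for 28 days, at a dose not given in the sources used here. They were set against 4 male F344/N rats of the 28-day study that stayed on basal diet and tap water with no treatment, although the labels give gavage as the route in both groups. Total liver RNA, labelled with Cy3, was hybridised to NimbleGen expression arrays, 1 array per animal, and the deposited values are log2 levels after RMA. All cells of the liver contributed to each sample, so a change in the number of cells of a type and a change in RNA per cell cannot be told apart.

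The integrated stress response starts when kinases phosphorylate the translation factor eIF2 on its alpha subunit, in response to unfolded proteins in the endoplasmic reticulum, amino acid shortage, haem shortage or double-stranded RNA. General protein synthesis then slows, while the mRNA of the transcription factor Atf4 is translated more, so that much of its control lies in translation and not in its mRNA level. Atf4 protein binds C/EBP-ATF response elements, and its target genes serve amino acid synthesis and uptake, the recovery of translation and, through Ddit3 (also called CHOP), cell death.

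Across all 8 arrays the level of 1224 olfactory receptor probe sets, which liver is not expected to express, stood in for background. Its 95th percentile lay between 6.54 and 6.95 in treated rats and between 6.95 and 7.94 in controls, the highest being control replicate 3. In the treated rats 55.2% to 61.0% of probe sets exceeded it, against 43.1% to 54.3% in controls. Control replicate 3 also correlated least with its own group across probe sets (mean r 0.935, where the other controls had 0.954 to 0.959 and treated rats 0.971 to 0.982). On the second principal component (19.8% of the variance) thioacetamide replicate 4 scored -51.8, against -8.51 to -5.19 in the other treated rats, and control replicates 3 and 2 scored -57.5 and 14.8, against 56.1 and 57.8 in the other controls. Results are also given without these 3 arrays, a choice made after seeing the data. All 7 hepatocyte markers listed, among them Alb and Apoa1, were above background on all arrays, and 0 of 7 passed the limma test described below (0 also before adjustment, at a p under 0.05). Their mean log2 level ranged from 15.50 to 15.55 in treated rats and from 15.47 to 15.58 in controls. Whether signals this high could register a change was not tested.

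The promoter windows that hold a known stress-response motif are shown first. RefSeq windows of the GRCr8 assembly, which run from 250 bases before to 50 bases after an annotated start, were found for 9 of the 10 genes, Atf3 being the one without an entry. In Asns, Psat1 and Herpud1 the start used lies 555, 779 and 9461 bases inside the outermost start of the gene. The motifs, searched on both strands, were the core of the C/EBP-ATF response element (CARE, TGATGNAA), the cyclic AMP response element (CRE, TGACGTCA) and the endoplasmic reticulum stress element (ERSE), and no matches overlapped. The CARE core was present in 3 of the 9 windows (3.98% of 33465 windows of the same length hold it). The CRE was present in 1 (1.83% of all windows). The ERSE was searched in only 1 form, 19 bases long with a fixed spacing, and that form was present in 0 (0.0657%). Forms of the ERSE with another spacing or with a base changed were not searched. Whether a window, that of Herpud1 included, holds such a form was therefore not tested. Capitals mark the CARE core, read on the opposite strand, in Trib3 (chr3:161275484-161275783, minus strand), Chac1 (chr3:126795881-126796180, plus strand) and Herpud1 (chr19:10614658-10614957, minus strand), and the CRE in Ppp1r15a (chr1:105139547-105139846, minus strand), each window written 5′ to 3′ in the direction of the gene.
Trib3: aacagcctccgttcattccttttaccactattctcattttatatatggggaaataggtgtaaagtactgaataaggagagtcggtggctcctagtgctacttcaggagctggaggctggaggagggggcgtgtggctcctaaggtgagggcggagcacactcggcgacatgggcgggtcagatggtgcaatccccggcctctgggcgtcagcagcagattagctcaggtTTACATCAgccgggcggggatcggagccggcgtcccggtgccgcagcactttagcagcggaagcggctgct
Chac1: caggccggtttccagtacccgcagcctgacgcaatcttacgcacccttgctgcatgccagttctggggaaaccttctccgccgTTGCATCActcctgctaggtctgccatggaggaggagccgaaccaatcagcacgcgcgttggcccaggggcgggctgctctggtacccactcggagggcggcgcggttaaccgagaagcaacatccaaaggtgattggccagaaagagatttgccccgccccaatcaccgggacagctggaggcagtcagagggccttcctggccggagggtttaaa
Herpud1: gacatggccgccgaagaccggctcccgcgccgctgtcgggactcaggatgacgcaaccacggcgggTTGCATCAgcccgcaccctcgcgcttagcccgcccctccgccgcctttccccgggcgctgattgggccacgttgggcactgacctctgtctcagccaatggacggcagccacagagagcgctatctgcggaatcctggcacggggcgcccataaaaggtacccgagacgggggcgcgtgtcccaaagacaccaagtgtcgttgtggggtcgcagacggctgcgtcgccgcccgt
Ppp1r15a: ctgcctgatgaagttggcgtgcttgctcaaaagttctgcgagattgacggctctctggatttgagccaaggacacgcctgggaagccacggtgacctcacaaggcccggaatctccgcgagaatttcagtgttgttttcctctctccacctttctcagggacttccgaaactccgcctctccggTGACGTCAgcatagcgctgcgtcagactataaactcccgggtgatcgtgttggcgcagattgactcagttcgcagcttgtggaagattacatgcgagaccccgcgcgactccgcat

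**Figure D1:**
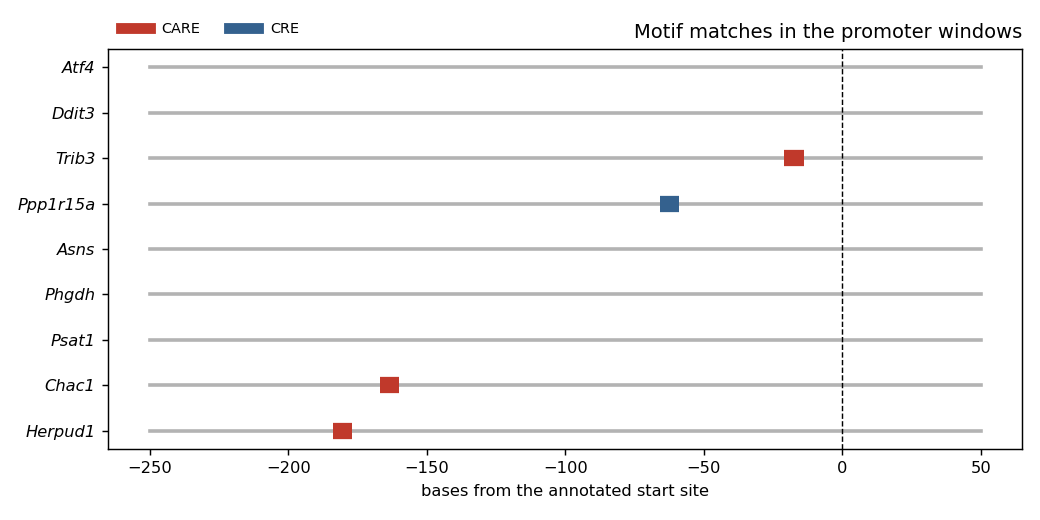
Promoter windows of the 9 genes with a RefSeq entry, drawn as grey bars against distance from the annotated start in bases, with CARE cores in red and the CRE in blue. The CARE cores begin 21, 167 and 184 bases before the start in Trib3, Chac1 and Herpud1, and the CRE begins 66 bases before it in Ppp1r15a.

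The CARE core began 21 bases before the start in Trib3, 167 in Chac1 and 184 in Herpud1, and the CRE began 66 bases before it in Ppp1r15a. None of the 3 genes with a CARE core in this window passed the test described below, and Ppp1r15a did. Chac1, 1 of those 3, was above background on only 1 of 4 treated arrays and 0 of 4 controls, so a change in it was not detectable. Asns, Phgdh and Ddit3, which also passed, held none of the 3 motifs, in the forms searched, in their windows. Sequence outside the windows was not searched, and that of Asns belongs to a start 555 bases inside the outermost one. Whether these genes hold a motif elsewhere was therefore not tested. A match is a run of letters and not a measured binding site.

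Thioacetamide livers had higher mRNA of 5 of the 10 genes, and 0 of the 10 fell. Asns, the enzyme of asparagine synthesis, rose by 2.51 on the log2 scale. Phgdh, an enzyme of serine synthesis, and the transcription factor Atf3 were at least 2.33-fold and at least 2.58-fold higher, these being lower bounds because their control values did not exceed background. Ppp1r15a and Ddit3 rose by 0.85 and 0.89, and the mRNA of Atf4 itself differed by 0.17, which did not pass. Tests were made with limma across all 26208 probe sets with Benjamini-Hochberg adjustment and a threshold of 0.05. At that threshold 9.46% of all probe sets were higher in treated livers and 5.14% were lower (14.6% in either direction). The groups did not overlap for the same 5 genes, against 13.9% of all probe sets with treated rats entirely higher (21.5% in either direction and 7.55% with treated rats entirely lower). Of the 5, Phgdh, Asns and Atf3 also differed by at least 2-fold as fitted, where 6.57% of all probe sets passed and were at least 2-fold higher (10.2% in either direction). The median difference over the 10 genes was 0.77, beside -0.03 over all probe sets. Under cyclic loess scaling or without thioacetamide replicate 1 only 3 of the 10 passed, and 5 passed without the 3 arrays that stood apart.

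**Figure D2:**
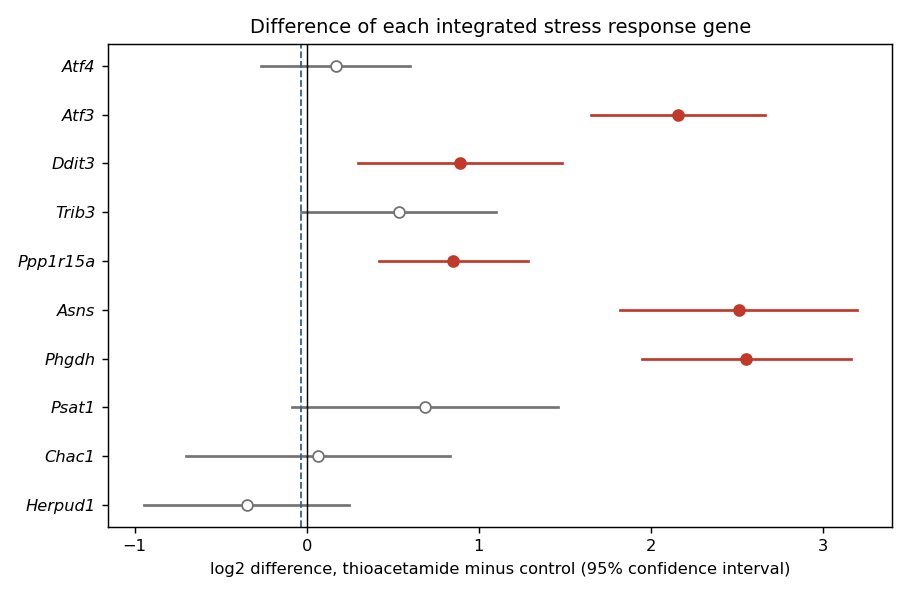
Log2 difference of each gene, thioacetamide minus control, with its 95% confidence interval (horizontal axis), 4 rats per group. Filled red points passed the limma test across all probe sets, open grey points did not, and the dashed line is the median of all probe sets (-0.03).

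Among the transcription factors, Atf4 had log2 levels of 14.06, 14.05, 13.57 and 14.02 in thioacetamide replicates 1 to 4, against 13.93, 13.85, 13.64 and 13.62 in control replicates 1 to 4. The groups overlapped, since thioacetamide replicate 3 lay below all 4 controls. The difference was 0.17 ± 0.19 (SE of the limma fit, 95% confidence interval -0.26 to 0.60, adjusted p = 0.608) and did not pass. It was 0.29 without thioacetamide replicate 3 and 0.11 under median centring.

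Atf3, an ATF/CREB factor that is induced by stress and is also an immediate early gene, measured 8.81, 8.65, 8.86 and 8.38 in treated rats, against 6.80, 6.41, 6.06 and 6.79 in controls. Every treated rat was above every control, with 1.58 between the nearest values, and all 4 controls were at or under background. The fitted difference was 2.16 ± 0.23 (adjusted p = 0.000303), and set against the background level of the control arrays the rise was at least 2.58-fold.

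Ddit3, the CHOP factor that Atf4 induces, measured 10.93, 10.36, 10.40 and 11.09 in treated rats, against 9.77, 9.69, 10.36 and 9.40 in controls. The groups were separate by only 0.0031, because control replicate 3 nearly reached thioacetamide replicate 2. The difference of 0.89 ± 0.27 (1.85-fold, adjusted p = 0.0496) stood at the edge of the threshold. It fell short of it without control replicate 1, 2 or 4 or any 1 of the 4 treated replicates, with differences of 0.76 to 1.002 and adjusted p between 0.0675 and 0.137, and under median centring and cyclic loess (0.83 and 0.68, adjusted p = 0.0582 and 0.173). Without control replicate 3 the difference was 1.08 (adjusted p = 0.0153).

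Trib3, a pseudokinase induced by Atf4 and Ddit3 that dampens their activity, measured 10.26, 10.02, 9.96 and 10.41 in treated rats, against 10.06, 9.76, 8.96 and 9.73 in controls. Control replicate 1 lay above thioacetamide replicates 2 and 3, and the difference of 0.53 ± 0.25 (95% confidence interval -0.03 to 1.10, adjusted p = 0.193) did not pass. It was 0.31 without control replicate 3, 0.31 under cyclic loess and 0.18 without the 3 arrays that stood apart.

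Ppp1r15a encodes GADD34, which directs a phosphatase to eIF2 and so restores translation. Its levels were 11.40, 10.86, 10.86 and 11.26 in treated rats, against 10.19, 10.35, 10.25 and 10.17 in controls, a gap of 0.51 between the groups. The controls lay close together (SD 0.08, n = 4), and the treated rats were spread more widely (SD 0.27, n = 4). The rise was 0.85 ± 0.19 (1.81-fold, adjusted p = 0.0163), and it missed the threshold without thioacetamide replicate 1 (0.75, adjusted p = 0.0564) and under cyclic loess (0.67, adjusted p = 0.0593).

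**Figure D3:**
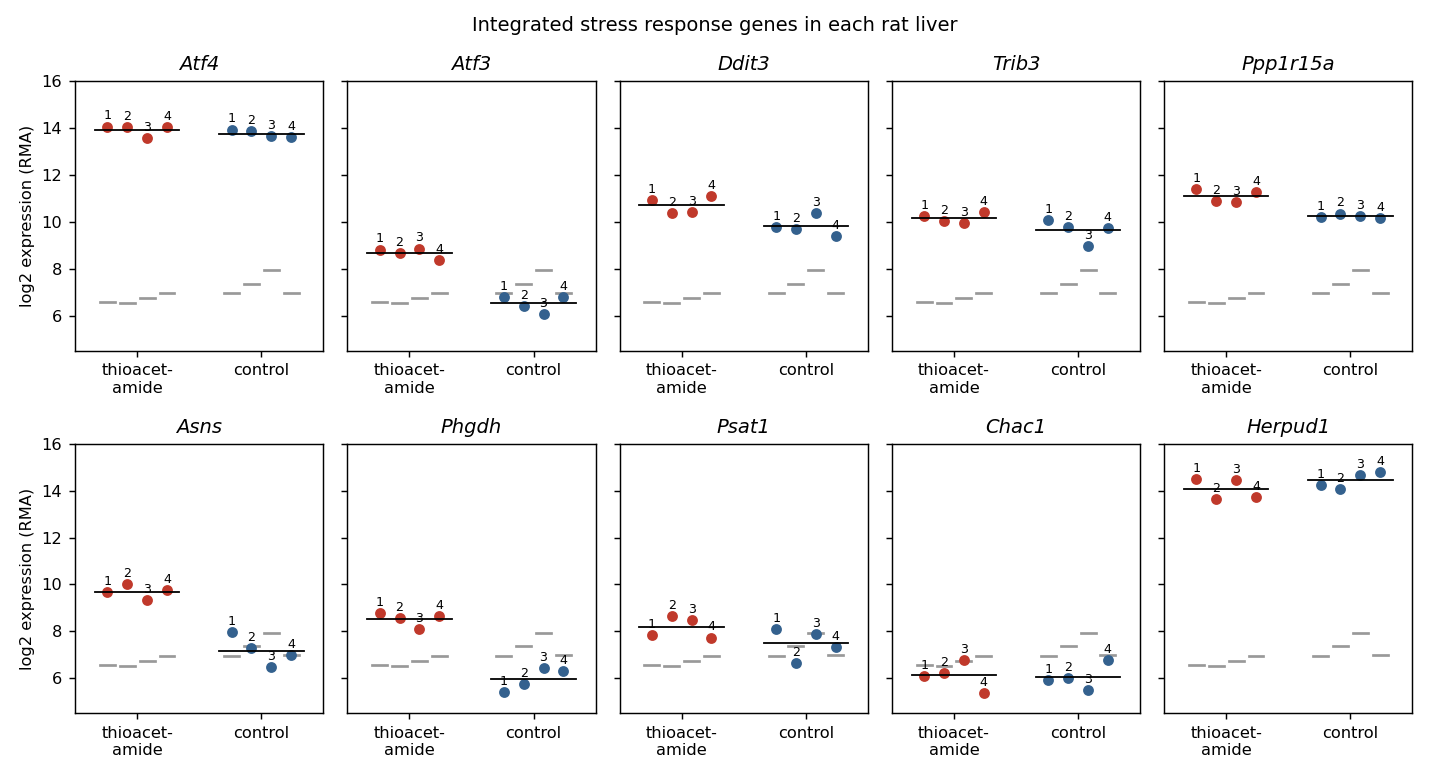
Log2 expression (vertical axis) of the 10 genes in each rat, thioacetamide in red and control in blue, numbered by replicate, with group means as black lines and the background level of each array as a grey dash. Atf3 and Phgdh lie at or under background in all 4 controls and above it in all 4 treated rats, and heights of different genes cannot be compared because probes differ.

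Of the enzymes, Asns, asparagine synthetase, measured 9.67, 10.004, 9.33 and 9.74 in treated rats, against 7.98, 7.27, 6.48 and 6.98 in controls. The groups were 1.36 apart, and 2 of the 4 controls were above background. The rise was 2.51 ± 0.31 (5.70-fold, adjusted p = 0.000704), a size that rests partly on control values at background.

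Phgdh catalyses the first step of serine synthesis from a glycolytic intermediate. It measured 8.80, 8.58, 8.09 and 8.64 in treated rats, against 5.40, 5.74, 6.45 and 6.30 in controls, and all 4 controls were at or under background. The fitted difference was 2.56 ± 0.27 (adjusted p = 0.000319), with a gap of 1.65 between the groups, and the rise over the background level of the controls was at least 2.33-fold. Asns, Phgdh and Atf3 passed whichever array was left out, with differences of 2.28 to 2.78, 2.37 to 2.71 and 2.01 to 2.26.

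Psat1, the aminotransferase of the second step of that pathway, measured 7.86, 8.66, 8.47 and 7.74 in treated rats, against 8.11, 6.64, 7.89 and 7.34 in controls. The groups overlapped, with control replicates 1 and 3 above thioacetamide replicates 1 and 4, and the difference of 0.69 ± 0.35 (95% confidence interval -0.08 to 1.46, adjusted p = 0.218) did not pass, and it was 0.40 without control replicate 2. Psph, the phosphatase of the last step, which was looked up to complete the pathway after the values of the others were seen, had 9.54, 9.57, 9.57 and 9.58 in treated rats, against 9.99, 9.79, 9.53 and 10.03 in controls (difference -0.27 ± 0.18, adjusted p = 0.361).

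Chac1 breaks down glutathione and is a late target of Atf4 and Ddit3. Its levels were 6.07, 6.23, 6.78 and 5.39 in treated rats, against 5.93, 6.002, 5.49 and 6.79 in controls. Only 1 of these 8 values, that of thioacetamide replicate 3, was above its array's background, so a difference between the groups was not detectable at this signal (0.06 ± 0.34, adjusted p = 0.924). Its probe set was also the only one of the 10 summarised from 2 probes, where the others had 3.

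Herpud1 is a membrane protein of the endoplasmic reticulum that takes part in the removal of unfolded proteins and is induced by several arms of the unfolded protein response. It measured 14.48, 13.65, 14.45 and 13.75 in treated rats, against 14.24, 14.06, 14.65 and 14.78 in controls. The groups overlapped, and the difference of -0.35 ± 0.27 (95% confidence interval -0.95 to 0.25, adjusted p = 0.426) had the opposite sign to those of the other 9 genes and did not pass, and it was -0.21 without thioacetamide replicate 2.

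Whether the genes differed from each other in their response was tested on the log2 ratio of each pair within an array, with an exact two-sided permutation test over the 8 arrays for all 45 pairs. With 4 rats against 4 this test cannot give a p below 0.0286. That value was reached by 23 of the 45 pairs, and after Benjamini-Hochberg adjustment over the 45 their p was 0.0559, so 0 of 45 passed. The difference of Psat1 minus that of Phgdh was -1.87 (exact permutation p = 0.0286, adjusted p = 0.0559), and the 4 treated ratios did not overlap those of the controls. The size of each pair with Phgdh, Atf3 or Chac1 rests on control values at or under background. Pairs with Asns or Psat1 rest partly on such values, since 2 of 4 controls were above background for each. Asns and Phgdh differed by -0.05 (exact permutation p = 0.943), and Ddit3 and Ppp1r15a by 0.04 (exact permutation p = 0.943). The difference of Atf4 minus that of Ppp1r15a was -0.68, and minus that of Atf3 it was -1.99 (exact permutation p = 0.0286 and adjusted p = 0.0559 for each).

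**Figure D4:**
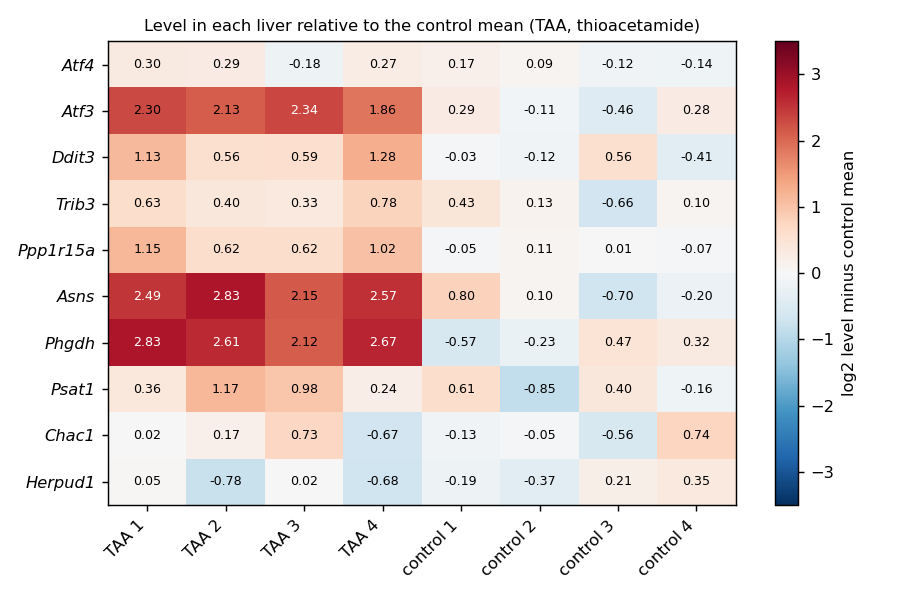
Log2 level of each gene (rows) in each liver (columns) minus the mean of the 4 controls, in red where higher and blue where lower, with TAA for thioacetamide. Asns, Phgdh and Atf3 are high in all 4 treated livers, while Ddit3, Ppp1r15a and Trib3 are highest in thioacetamide replicates 1 and 4.

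Levels varied among the treated rats. Ddit3 and Trib3 were highest in thioacetamide replicate 4 and next in replicate 1, and Ppp1r15a was highest in replicate 1 and next in replicate 4. Psat1 ran the other way, with replicates 2 and 3 above replicates 1 and 4. The log2 ratio of Ddit3 to Ppp1r15a had an SD of 0.15 among treated rats and 0.39 among controls (n = 4 each), while Ddit3 alone had an SD of 0.37 among treated rats and 0.40 among controls. These are descriptions of 4 animals per group, chosen after the values were seen, and were not tested.

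The genes whose log2 levels over the 8 arrays were most like those of Atf4, among 9466 genes above background on all arrays, were Rps8l1 (Pearson r 0.965), RGD1559566 (0.929), Tnfrsf9 (0.919), Timm23 (0.903) and Faul2 (0.900). Timm23 is part of the import machinery of the mitochondrial inner membrane, and Tnfrsf9 is a costimulatory receptor of T cells. Of the other genes of the response, Trib3 came nearest to Atf4 (r 0.671), with Asns at 0.625, and Herpud1 was farthest (r -0.713). The 8 points share 2 treatment groups and the same arrays and scaling, so these values only describe these samples.

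The other targets of Atf4 were split. Of 28 genes listed, 6 rose, 2 fell and 20 did not pass, with a median difference of 0.16 beside -0.04 over all genes, where 9.67% of genes rose and 5.24% fell. That median was 0.08 when control replicate 1 was omitted, 0.09 when thioacetamide replicate 3 was, and 0.10 under median centring. Slc1a5, a glutamine carrier, measured 8.05, 8.27, 7.67 and 7.73 in treated rats, against 6.16, 6.57, 6.79 and 6.36 in controls, with all controls at or under background, so that it was at least 1.54-fold higher (1.46 ± 0.22, adjusted p = 0.00209). Slc7a5, which exchanges large neutral amino acids, was at least 1.27-fold higher (1.32 ± 0.24, adjusted p = 0.00527), and its partner chain Slc3a2, named after its value was seen, rose by 1.03 ± 0.19 (adjusted p = 0.00602). Slc38a2, another neutral amino acid carrier, and Slc6a9, a glycine carrier, both named after their values were seen, differed by 0.21 ± 0.31 and -0.78 ± 0.33 (adjusted p = 0.701 and 0.148). Tnfrsf10b, a death receptor that Ddit3 induces and that p53 also induces, rose by 2.71 ± 0.35 (adjusted p = 0.000841), and its second probe set by 2.07.

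Nupr1, a chromatin-associated stress protein, had the largest fall of that list. It measured 9.61, 8.73, 9.30 and 9.04 in treated rats, against 12.25, 12.64, 12.71 and 13.27 in controls, a difference of -3.55 ± 0.27 (11.7-fold lower, adjusted p = 5.86e-05). The groups were far apart, and the call held whichever array was left out. Vegfa, a growth factor of blood vessels, was the other fall (-0.65 ± 0.17, adjusted p = 0.0329). Its call ended when control replicate 1 or 2 or any 1 treated rat was omitted (adjusted p between 0.0541 and 0.092). Gdf15, a secreted stress hormone, passed the test (fitted difference 1.25 ± 0.32, adjusted p = 0.0263) and was above background on 3 of 4 treated arrays and 0 of 4 controls. Its mean in treated rats, 6.82, lay below the background level of each control array, so no fold over background is given. The call ended when thioacetamide replicate 1, 2 or 3 or control replicate 1 or 4 was omitted (adjusted p between 0.0564 and 0.0877). Fgf21, a liver hormone induced by Atf4, ranged from 6.77 to 8.50 in treated rats and from 6.67 to 8.87 in controls (0.08 ± 0.51, adjusted p = 0.935). Sesn2, a brake on mTORC1 signalling, differed by -0.13 ± 0.22 (adjusted p = 0.737) on the probe set used and by -0.90, 0.20 and -0.57 on its other 3, and Slc7a11, the cystine carrier, was at or under background on all 8 arrays. With 1 array omitted, between 4 and 6 genes of this list rose.

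**Figure D5:**
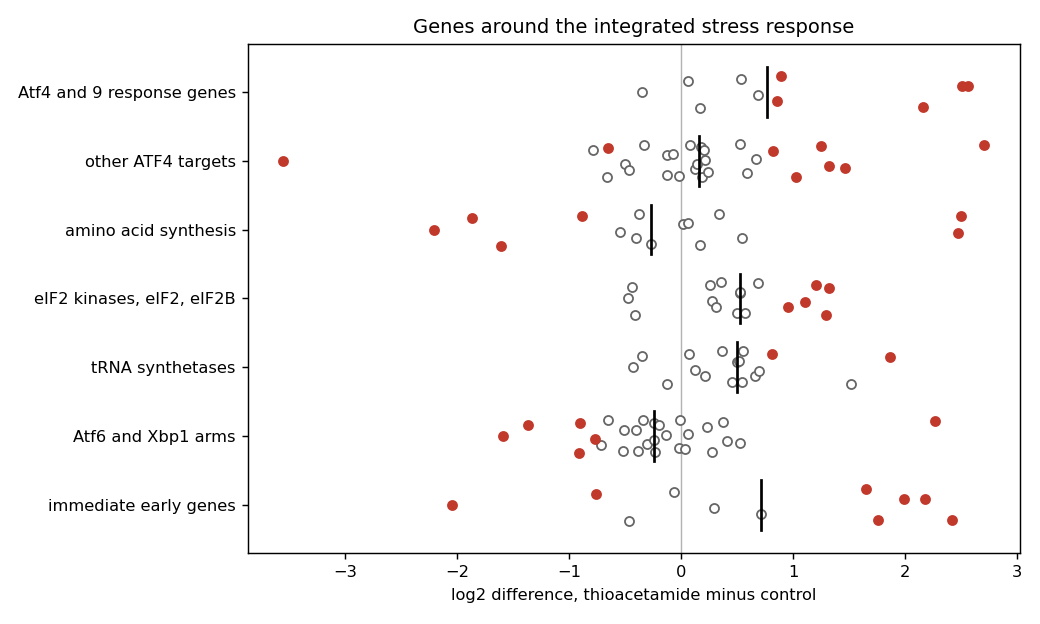
Log2 difference, thioacetamide minus control (horizontal axis), of every measured gene in 7 lists (rows), with filled red points for genes that passed the limma test, open points for those that did not, and a black line at each list's median. The medians range from -0.27 for amino acid synthesis enzymes to 0.77 for Atf4 and the 9 other response genes.

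Enzymes around Asns and Phgdh moved in both directions, as did all genes, of which 9.67% rose and 5.24% fell. Of 15 enzymes of serine, glycine, one-carbon and related amino acid metabolism, 2 rose, 4 fell and 9 did not pass (median -0.27). That median was -0.17 when control replicate 3 or thioacetamide replicate 4 was omitted, -0.13 after removal of dim probe sets and -0.42 under cyclic loess. The rises were Mthfd1l, a mitochondrial enzyme of one-carbon metabolism (2.495 ± 0.31, adjusted p = 0.000739, 1 of 4 controls above background), and Aldh18a1, which makes the precursor of proline (2.47 ± 0.21, adjusted p = 9.38e-05, at least 2.58-fold higher over the background level of the controls). Cbs, which condenses homocysteine with serine, fell by 2.20 ± 0.23 on the log2 scale (adjusted p = 0.00027), and Gls2, liver glutaminase, fell by 1.86 ± 0.36 (adjusted p = 0.00751). These 4 calls held whichever array was omitted.

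Upstream of Atf4, 1 of the 3 subunits of eIF2 (Eif2s1) and 3 of the 5 subunits of its exchange factor eIF2B (Eif2b1, Eif2b2 and Eif2b3) rose. The count for eIF2 depends on the probe set used for Eif2s3. That probe set did not pass (0.52 ± 0.17, adjusted p = 0.0693), and the second one of Eif2s3 did (0.96 ± 0.21, adjusted p = 0.0125). The list of 17 genes held eIF2 kinases, their regulators, eIF2, eIF2B and Eif2a, a separate initiation factor that is not a subunit of eIF2. Of the 17, 5 rose and 0 fell, with a median of 0.52. Over all genes 9.67% rose and 5.24% fell. The kinase Eif2ak3 (PERK), which senses unfolded proteins in the endoplasmic reticulum, measured 10.80, 10.87, 10.46 and 10.64 in treated rats, against 9.51, 9.65, 9.76 and 10.02 in controls, so that the groups did not overlap (0.96 ± 0.19, adjusted p = 0.0092). The kinases for double-stranded RNA (Eif2ak2, 0.35 ± 0.26), amino acid shortage (Eif2ak4, 0.50 ± 0.35) and haem shortage (Eif2ak1, -0.41 ± 0.28) did not pass (adjusted p = 0.401, 0.375 and 0.359). That the kinases differed from each other was not tested.

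The eIF2 alpha subunit Eif2s1, the target of these kinases, rose by 1.11 ± 0.20 (adjusted p = 0.00458). Of the eIF2B subunits, Eif2b3 rose by 1.32 ± 0.20 (adjusted p = 0.00221), Eif2b2 by 1.30 ± 0.17 (adjusted p = 0.00106) and Eif2b1 by 1.20 ± 0.28 (adjusted p = 0.0196), while Eif2b4 and Eif2b5, named after their values were seen, differed by 0.27 ± 0.23 and 0.26 ± 0.37 (adjusted p = 0.471 and 0.684). Eif2b1 missed the threshold when control replicate 2, thioacetamide replicate 1 or thioacetamide replicate 2 was omitted (1.15, 1.21 and 1.15, adjusted p = 0.0522, 0.0534 and 0.0675) and without the 3 arrays that stood apart (0.73, adjusted p = 0.0521). Ppp1r15b, the constitutive counterpart of Ppp1r15a and likewise named after its value was seen, differed by -0.47 ± 0.23 (adjusted p = 0.199).

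Of 17 measured cytosolic aminoacyl-tRNA synthetases, which charge tRNAs and several of which Atf4 induces, 2 rose and 0 fell, with a median of 0.50 (before adjustment, limma gave a p under 0.05 to 9 that were higher and 1 that was lower), and the median was 0.25 without the 3 arrays that stood apart. The 11.8% that rose lay near the 9.67% of all genes that rose, and 5.24% of all genes fell. Rars1, for arginine, rose by 1.86 ± 0.51 (adjusted p = 0.0376), with a second probe set at 1.35. Its control replicate 3 measured 9.33, against 11.74 to 11.81 in the other controls, so the size of that rise rests partly on 1 array. Sars1, for serine, rose by 0.81 ± 0.19 (adjusted p = 0.0163). Neither call held when thioacetamide replicate 1 or 2 was omitted, where 0 of the list passed. The number of the list that passed was 1 without thioacetamide replicate 3 or 4, and 3 without control replicate 1, 3 or 4.

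The neighbouring arms of the unfolded protein response, run by Atf6 and Xbp1, held more falls than rises. Of 28 measured genes 1 rose, 5 fell and 22 did not pass (median -0.24), where 9.67% of all genes rose and 5.24% fell. Hspa5 (BiP), the main chaperone of the endoplasmic reticulum, measured 14.74, 14.87, 14.66 and 14.63 in treated rats, against 14.66, 14.58, 14.75 and 14.67 in controls (0.06 ± 0.17, adjusted p = 0.854). Xbp1 differed by 0.03 ± 0.25 (adjusted p = 0.945), and its spliced form was not analysed here. Sdf2l1, a chaperone partner, fell by 1.59 ± 0.23 (adjusted p = 0.00161), Edem1, which targets misfolded glycoproteins for removal, by 1.37 ± 0.32 (adjusted p = 0.0189) and Sel1l, of the same removal pathway as Herpud1, by 0.91 ± 0.25 (adjusted p = 0.0384). Mbtps2, a protease that activates Atf6, rose by 2.26 ± 0.41 (adjusted p = 0.0054). The falls numbered 2 without thioacetamide replicate 1 or 2 or without the 3 arrays that stood apart, and 3 without thioacetamide replicate 3 or 4 or control replicate 1 or 4. Sdf2l1 and Mbtps2 kept their calls whichever array was omitted, and Edem1 and Sel1l did not.

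Because Atf3 is also an immediate early gene, that group was set beside it. Of 11 such genes 5 rose and 2 fell (median 0.71), with Btg2 at 2.41 ± 0.24 (adjusted p = 0.000253), Jun at 2.18 ± 0.32 (adjusted p = 0.00167) and Egr1 at 1.99 ± 0.30 (adjusted p = 0.00222). Dusp1 fell by 2.04 ± 0.33 (adjusted p = 0.00304) and Zfp36 by 0.76 ± 0.22 (adjusted p = 0.0462). Fos differed by -0.07 ± 0.24 (adjusted p = 0.886). For comparison, 9.67% of all genes rose and 5.24% fell. Of the 8 fits that omit an array, Zfp36 kept its call only in the one without thioacetamide replicate 1.

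Markers of other cells were measured beside these genes, and their counts stand beside 9.67% of all genes that rose and 5.24% that fell. Of 7 bile duct markers 2 rose and 0 fell, with Cldn7 at 3.52 and Epcam at 1.87, and their mean log2 level ranged from 8.90 to 9.68 in treated rats and from 7.70 to 8.71 in controls. Of 6 stellate cell markers 2 rose (9.71 to 10.26 in treated rats, 9.43 to 9.77 in controls), and 0 did when thioacetamide replicate 1, 2 or 3 or control replicate 1 was omitted. Of 8 macrophage markers 3 fell (10.60 to 11.19 in treated rats, 11.35 to 12.21 in controls). That number was 5 under median centring, with robust estimation and after removal of dim probe sets, 1 without thioacetamide replicate 1, 3 or 4 or without the 3 arrays that stood apart, and 0 without thioacetamide replicate 2. Of 8 T and NK cell markers 3 fell (6.98 to 7.36 in treated rats, 7.38 to 7.79 in controls). Only 2 of the 8 were above background on all arrays, and 1 was on no array. With array weights, without thioacetamide replicate 4 or without the 3 arrays that stood apart, 1 rose and 2 fell. Endothelial, B cell and neutrophil markers (6, 3 and 5 measured) had 0 calls, and before adjustment limma gave a p under 0.05 to 2, 1 and 1 of them. Mean levels ranged from 9.32 to 10.04 in treated rats and from 9.80 to 10.11 in controls for endothelial markers, from 5.67 to 6.23 and from 6.04 to 6.66 for B cell markers, and from 6.37 to 6.51 and from 6.22 to 6.86 for neutrophil markers. On no array were 2 of the 3 B cell and 2 of the 5 neutrophil markers above background. The part of these cells in the changes of Asns, Phgdh, Atf3, Ddit3 and Ppp1r15a was not tested.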

How the data were processed

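Liver RNA of 4 thioacetamide-treated and 4 control rats was measured on 1 array each. The deposited log2 values were made by the authors with RMA, per the submitters' processing notes, with no version or settings stated there. Sample files and series table held the same values (largest difference 0.0), and 11 probe sets had no value in control replicate 4. Probe sets were named through gene identifiers (20543), accessions (31) or the files' symbols (5634) with a RefSeq table of GRCr8. The probe set with the highest mean stood for a gene with several.

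The groups were compared with limma 3.58.1 (lmFit and eBayes, two-sided) in R 4.3.3, adjusted by Benjamini-Hochberg over all probe sets. Promoter search, permutation tests and figures used Python 3.11.15 with SciPy 1.17.1. Differences are thioacetamide minus control with standard errors of the fit, and SD is named where used. Arrays give no read depth, so the number of arrays and the signal over background limit the precision. Tested on simulated data (26197 probe sets, 4 against 4), limma recovered 16% of 100 genes changed 2-fold and 75% of 100 changed 4-fold, with 6 false among 97 calls. The simulation held far fewer changes than passed in the data (14.6% of all probe sets). The adjustment was therefore stricter there, and these recovery rates do not carry over to the data. Where a group was at or under background on all arrays, the fold is a bound that sets the other group's mean against the higher of background and measured level.

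Members, lists and tests were chosen with earlier results of these data known. From each list the text names up to 4 genes past the threshold with the largest differences, up to 2 of the opposite direction, and always the eIF2 kinases, Fgf21, Gdf15, Sesn2, Slc7a11, Hspa5 and Xbp1. The 5 genes most like Atf4 in Pearson r over the arrays are named too. Alternatives were array weights, cyclic loess or median centring, robust estimation with a trend on intensity, removal of dim probe sets, a block for replicate number, averaging of a gene's probe sets, omission of each array in turn and, added after seeing the data, leaving out 3 arrays that stood apart. The background level was taken from 1224 olfactory receptor probe sets.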

Additional observations from a re-analysis of the deposited data

Results flagged for a closer look

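Among the 20 sets of 4 values formed by the 10 genes and 2 groups, Atf4 in thioacetamide rats held a value far from the others. Thioacetamide replicate 3 measured 13.57, against 14.02 to 14.06 in the other 3 treated rats, and its gap to the nearest value was 0.924 of the group's range. Chance gives about 1 such value in 20 groups. Without that array the difference of Atf4 was 0.29 (adjusted p = 0.3998).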

How the results depend on the processing

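Over 16 alternatives, Asns, Phgdh and Atf3 kept direction and call under every one. The number of the 10 genes that passed was 5, against 3 under cyclic loess, 3 with the replicate block and 3 to 5 with 1 array left out. Ddit3 lost the threshold under cyclic loess (0.68), median centring (0.83) and the replicate block (0.89, adjusted p = 0.131), and ranged from 0.76 to 1.08 with 1 array left out. Ppp1r15a lost it under cyclic loess (0.67) and the replicate block (0.85, adjusted p = 0.0692), and ranged from 0.75 to 0.93 with 1 array left out. Chac1 changed sign without control replicate 3 (-0.12) and thioacetamide replicate 3 (-0.16), in a range of -0.16 to 0.31, and had no value under the filter on dim probe sets. Atf4, Trib3, Psat1 and Herpud1 kept their sign and did not pass under any alternative. Of the 17 genes listed around eIF2, 5 rose, against 8 with robust estimation and 9 after removal of dim probe sets. Of the tRNA synthetases 2 rose, against 6 under both of these settings and 4 with array weights. Of the Atf6 and Xbp1 genes 5 fell, and 2 with the replicate block. Of the macrophage markers 3 fell, and 0 with the replicate block. The genes of the 6 pathway lists that passed numbered 34 of 116, and 24 to 34 with 1 array left out. Over all probe sets 3827 passed, against 2163 with the replicate block and 2166 to 3924 with 1 array left out, and the share of them that was higher was 64.8%, against 53.5% under cyclic loess. The labels do not say that equal replicate numbers mark paired animals. Deviations from the group means correlated between -0.43 and 0.25 over the 4 numbers, too few to exclude a pairing. Atf3, Phgdh and Chac1 were at or under background in all 4 controls, which limits the size of their folds. The cause of each change of call was not tested.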
